A study of Mus musculus with 6 samples.

Results

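The meiotic cyclins and cyclin-dependent kinases are 10 genes, *Ccna1*, *Ccna2*, *Ccnb1*, *Ccnb2*, *Ccne1*, *Ccne2*, *Cdk1*, *Cdk2*, *Cks2* and *Cdc25c*, listed by name and matched to the count data through the gene symbols of GENCODE mouse release M21. All 10 were found among the 55536 genes counted, and all 10 were among the 21465 genes with enough reads to be compared between genotypes. RNA was measured in whole testes of 3 KOStra8 and 3 HETStra8 male mice, all 7 weeks old, with 1 library of poly(A)+ RNA per mouse. The KOStra8 mice had a floxed *Sel1L* allele, a deleted *Sel1L* allele and a Cre recombinase driven by the male germ cell promoter Stra8, which is only partly active in spermatogonia and spares Sertoli cells, so that somatic cells of the organ keep their floxed allele. Under the name HETStra8 the paper groups Stra8-Cre carriers with 1 floxed and 1 intact *Sel1L* allele and animals whose alleles are floxed and deleted, whereas the deposited design lists the latter alone, and no genotype was given mouse by mouse. SEL1L is the adaptor of the HRD1 ubiquitin ligase in endoplasmic reticulum-associated degradation.

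Cyclins bind cyclin-dependent kinases and switch them on, and their synthesis and destruction set the order of the cell cycle. In the testis, spermatogonia divide by mitosis, and spermatocytes then pass through a long meiotic prophase before the paired meiotic divisions that give round spermatids. Cyclin A1 is made in late spermatocytes and is needed for entry into the first meiotic division, cyclin A2 belongs mainly to dividing spermatogonia and early spermatocytes, B-type cyclins with CDK1 drive the divisions themselves, and E-type cyclins with CDK2 act in meiotic prophase, where CDK2 sits at the telomeres of the chromosomes.

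The targeted gene followed the labels. *Sel1l* stood at 49.3, 47.6 and 42.4 CPM (counts scaled to a common library size with TMM factors) in the HETStra8 mice 1, 2 and 3 and at 24.2, 21.97 and 20.3 CPM in the KOStra8 mice 1, 2 and 3, a log2 fold change of -1.07 (SE 0.104, edgeR adjusted p = 0.00061). Library totals lay between 28875108 and 36526695 counts. The summed level of 12 pachytene and diplotene spermatocyte markers was 7062 to 7322 CPM in HETStra8 and 6864 to 7214 CPM in KOStra8. The 12 round spermatid markers summed to 3143 to 3222 CPM in HETStra8 and 2809 to 3056 CPM in KOStra8. The 10 elongating spermatid markers summed to 17670 to 17680 and 15820 to 17580 CPM. Both sums were lower in every KOStra8 testis, and none of these genes had an edgeR adjusted p below 0.01. Abundant genes weigh most in such sums, and *Gapdhs* alone was at 1421 to 1459 CPM in HETStra8 and 1184 to 1313 CPM in KOStra8. The median log2 fold changes of the 2 spermatid lists were -0.063 and -0.052. Of their genes, 3 of 12 and 1 of 10 lay above 0, beside 48.5% of all genes. After the correction for GC content and length described below, the medians were -0.02 and -0.035. The 6 markers of the epididymis summed to between 3.18 and 11.9 CPM over the 6 libraries. Libraries differed in how their counts varied with the GC content of genes: the Spearman correlation, across genes, of a gene's deviation from its mean with its GC content was 0.387, 0.288 and -0.0519 for HETStra8 mice 1 to 3 and -0.235, -0.186 and -0.371 for KOStra8 mice 1 to 3. The correlation was lower in every KOStra8 library than in every HETStra8 library. Each difference is therefore given as measured and, where it matters, after a correction of each library for GC content and transcript length. Because the GC trend goes with genotype, the correction may also remove differences due to genotype, and the 2 cannot be told apart here.

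The promoters of *Ccnb1*, *Ccnb2* and *Cdk1* are shown because CDK1 with either cyclin drives the meiotic divisions. These cyclins differ in level, and a link between promoter and level was not tested. Each run covers 250 bases before and 50 bases after the RefSeq start of the gene, on the GRCm38.p6 genome and in the direction of the gene. Capitals mark TTTGAA, the core of the cell cycle homology region, and CCAAT, each on either strand. Windows of 7 of the 10 genes were searched, and those of *Ccna2*, *Ccne2* and *Cdc25c* were not.
Ccnb1, chr13:100786437-100786736, minus strand: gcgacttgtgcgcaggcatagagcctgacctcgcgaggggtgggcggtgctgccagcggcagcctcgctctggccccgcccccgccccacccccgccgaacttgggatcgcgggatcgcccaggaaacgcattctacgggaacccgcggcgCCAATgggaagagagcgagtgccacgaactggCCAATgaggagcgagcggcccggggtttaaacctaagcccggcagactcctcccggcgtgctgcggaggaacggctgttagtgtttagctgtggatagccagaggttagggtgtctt
Ccnb2, chr9:70421505-70421804, minus strand: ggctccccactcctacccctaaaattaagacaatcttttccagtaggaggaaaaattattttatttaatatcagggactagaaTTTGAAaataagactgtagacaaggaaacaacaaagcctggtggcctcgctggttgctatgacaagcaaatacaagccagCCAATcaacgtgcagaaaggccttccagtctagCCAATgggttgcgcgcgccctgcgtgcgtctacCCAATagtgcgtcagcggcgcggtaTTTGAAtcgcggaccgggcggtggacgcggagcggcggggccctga
Cdk1, chr10:69352863-69353162, minus strand: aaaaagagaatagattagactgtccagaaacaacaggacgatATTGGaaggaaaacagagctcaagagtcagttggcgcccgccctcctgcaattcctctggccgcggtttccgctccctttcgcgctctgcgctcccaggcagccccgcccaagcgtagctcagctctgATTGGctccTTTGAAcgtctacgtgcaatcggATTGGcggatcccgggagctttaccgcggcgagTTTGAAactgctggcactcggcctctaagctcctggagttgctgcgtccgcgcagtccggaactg

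TTTGAA or its reverse occurred 2 times in the *Ccnb2* window and 2 times in the *Cdk1* window, and in none of the other 5 windows, against 17.9% of 32851 promoters. CCAAT or its reverse occurred in 6 of the 7 windows, all but that of *Ccne1*, against 37.4% of promoters. TTCCCGC, an E2F motif, was in the *Cdk2* window alone among the 7, against 4.6% of promoters, and AACTG, the core bound by MYB proteins, was in those of *Ccnb1*, *Cdk1* and *Cdk2*, against 44.8%. These short motifs were searched on both strands and are matches of letters only.

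Levels of different genes can be compared only per length, as CPM per kilobase (kb) of exonic sequence. On that scale *Ccnb2* was the highest of the 10 genes, with a mean of 107 CPM per kb over the 6 testes (range 82.7 to 124), followed by *Ccna1* with 72.4 (61.2 to 80.0) and *Cks2* with 68.9 (62.3 to 73.1). The ranges of *Ccna1* and *Cks2* overlapped, so their order is not set. *Ccnb1* came next with 17.1 (15.4 to 20.04) and *Cdk2* with 11.6 (10.6 to 12.9), each apart from its neighbours. *Ccne2* at 8.42 (6.63 to 9.85) and *Cdk1* at 6.10 (5.31 to 7.00) overlapped, *Cdc25c* lay below both at 4.34 (3.87 to 4.74), and *Ccne1* at 2.08 (1.55 to 2.41) and *Ccna2* at 1.96 (1.79 to 2.11) overlapped at the bottom. With the longest annotated transcript as the length, the means of *Ccnb2* and *Ccna1*, 107 and 77.3 CPM per kb, kept their order, but their ranges overlapped. The ranges of *Cdc25c*, with a mean of 8.10 CPM per kb, and *Cdk1*, with 6.88 CPM per kb, overlapped too. These 2 means changed places, so that the order of *Cdc25c* and *Cdk1* rests on the length used.

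**Figure D1:**
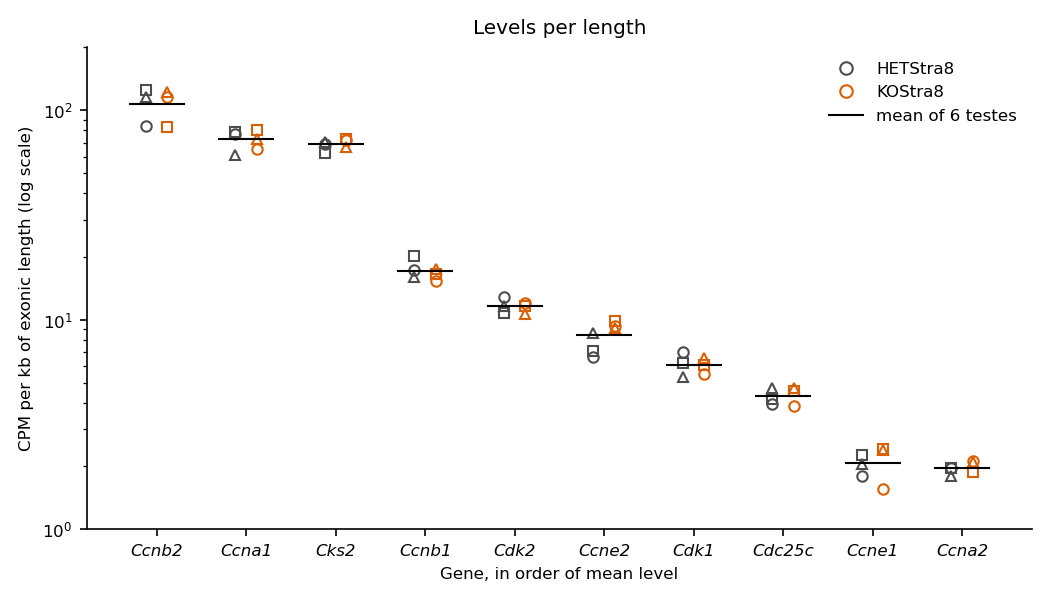
CPM per kb of exonic length (log axis) of the 10 genes in each testis, in order of the mean over 6 testes (line); grey symbols are HETStra8 and orange symbols KOStra8 mice, with circles, squares and triangles for mice 1, 2 and 3. The means run from 107 for Ccnb2 down to 1.96 for Ccna2, and the 2 genotypes lie on top of each other for most genes.

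In each pair of related cyclins 1 member prevailed in every testis. *Ccna1* was 30.8 to 42.6 times as high as *Ccna2* per kb, *Ccnb1* was 0.133 to 0.207 times as high as *Ccnb2*, and *Ccne1* was 0.167 to 0.320 times as high as *Ccne2*. The kinase *Cdk1* stood at 0.457 to 0.614 times the level of *Cdk2*. These ratios were taken per kb of exonic length, and their size rests on the length used. With the longest annotated transcript as the length, *Ccnb1* and *Ccnb2* had means of 29 and 107 CPM per kb. *Cdk1* and *Cdk2* then had means of 6.88 and 22.02 CPM per kb. The same member of each pair kept the higher mean, and the genotype differences given next did not change with this length. None of these 4 ratios separated the genotypes: the mean log2 ratio in KOStra8 minus that in HETStra8 was -0.083 for *Ccna1* over *Ccna2* (exact permutation test, two-sided, p = 0.7), -0.098 for *Ccnb1* over *Ccnb2* (exact permutation p = 0.6), -0.31 for *Ccne1* over *Ccne2* (exact permutation p = 0.4) and 0.0082 for *Cdk1* over *Cdk2* (exact permutation p = 1). With 3 mice against 3 the smallest possible p is 0.1, and adjusted over the 4 ratios the permutation p values were 0.933, 0.933, 0.933 and 1. After the GC and length correction, chosen for the ratios after the data had been seen, the difference for *Ccne1* over *Ccne2* turned to 0.11 (exact permutation p = 0.8).

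**Figure D2:**
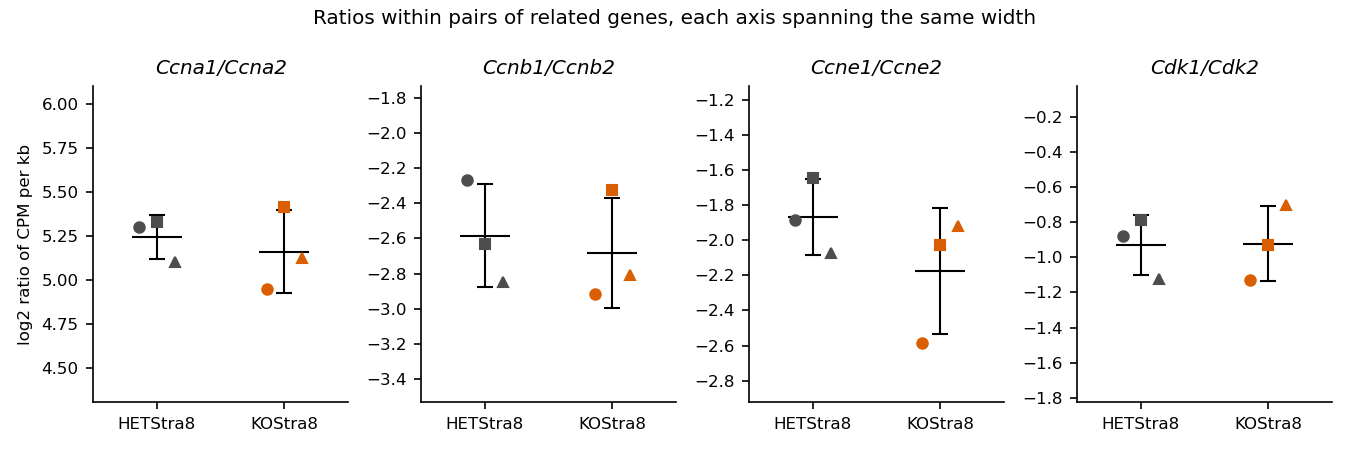
Log2 ratio of CPM per kb within 4 pairs of related genes in each testis, with mean and SD per genotype (n = 3); every axis spans the same width around its own centre and does not start at 0. The genotypes overlap in all 4 pairs.

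Whether loss of SEL1L changed these genes was asked of the comparison of KOStra8 with HETStra8 testes. None of the 10 genes passed an adjusted p of 0.01 or of 0.05 in edgeR's quasi-likelihood test, where 0.0186% of all 21465 genes passed 0.01 and 0.0233% passed 0.05, and DESeq2 and limma-voom called none of the 10 at 0.01 either. At an unadjusted p below 0.05 edgeR gave 1 of the 10, *Ccne2*, against a background of 12.3% of all genes, and 7.13% in its direction. The median log2 fold change of the 10 genes was 0.021, beside -0.0094 over all genes compared, and 6 of the 10 lay above 0, beside 48.5% of all genes. In these whole testes fewer cells of a type and less RNA per cell cannot be told apart.

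**Figure D3:**
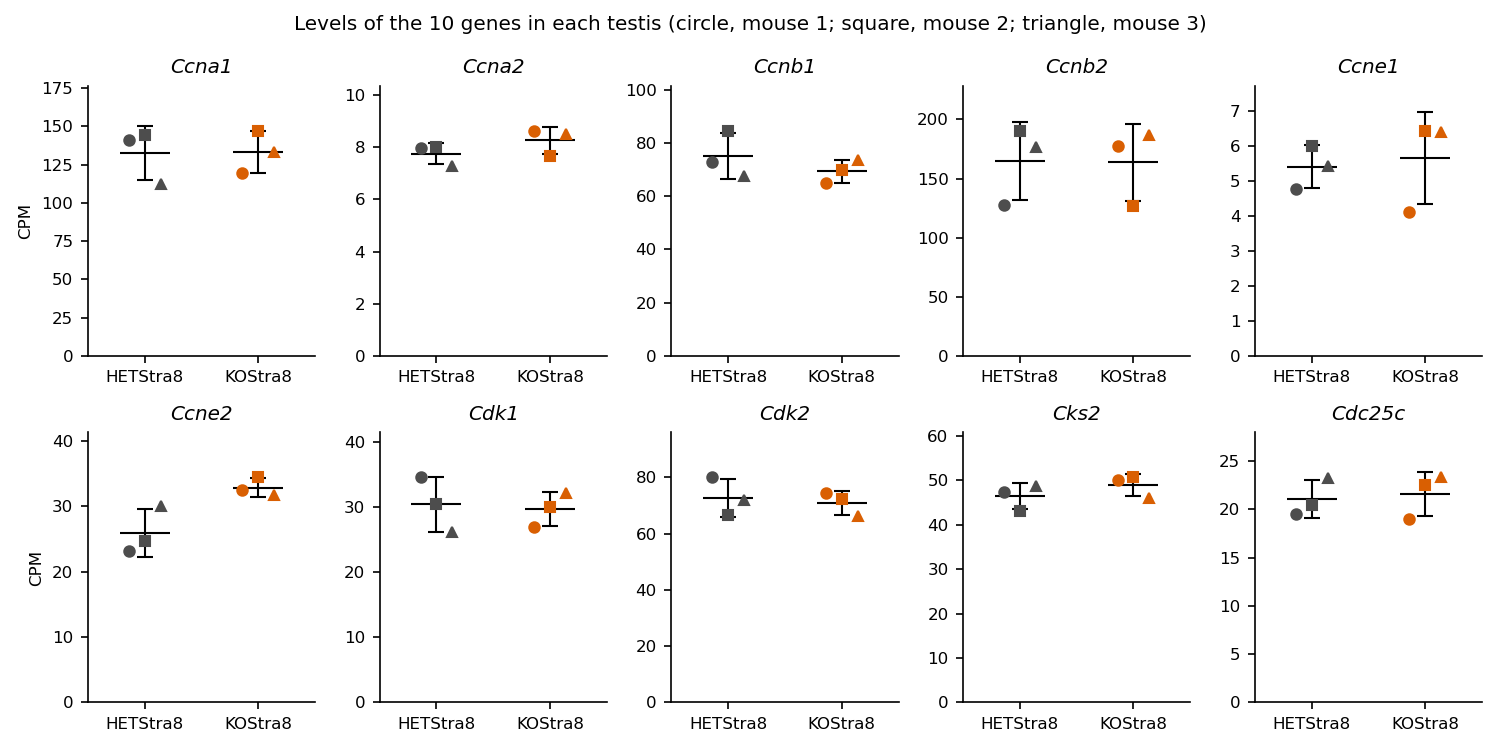
CPM of the 10 genes in each testis (circle, square and triangle for mice 1, 2 and 3), with mean and SD per genotype (n = 3) and axes from 0. The genotypes overlap for 9 genes, and for Ccne2 the KOStra8 testes, at 31.7 to 34.4 CPM, lie above the HETStra8 testes, at 23.2 to 30.1 CPM.

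*Ccna1* (ENSMUSG00000027793, chr3:55045469-55055501, GRCm38) encodes cyclin A1, whose absence stops spermatocytes before the first meiotic division. It stood at 141, 144.5 and 112 CPM in the HETStra8 mice 1, 2 and 3 and at 119, 147 and 133 CPM in the KOStra8 mice 1, 2 and 3. The lowest and next lowest values came from HETStra8 mouse 3 and KOStra8 mouse 1, and the groups overlapped throughout. The means were 133 ± 17.7 CPM in HETStra8 and 133 ± 13.8 CPM in KOStra8 (SD, n = 3), and the log2 fold change was 0.0043 (95% interval -0.22 to 0.23, edgeR adjusted p = 0.991). *Ccna1* shares 185 exonic bases (10.1%) with the antisense gene 4931419H13Rik, at 5.33 and 4.98 CPM in HETStra8 and KOStra8, and whether reads were assigned by strand was not given in the sources used here, so reads of such overlaps may be split between the genes.

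*Ccna2* (ENSMUSG00000027715, chr3:36564865-36572150) encodes cyclin A2 of S phase and mitosis. Its levels were 7.95, 7.99 and 7.29 CPM in the HETStra8 mice 1, 2 and 3 and 8.62, 7.67 and 8.49 CPM in the KOStra8 mice 1, 2 and 3. KOStra8 mice 1 and 3 lay above every HETStra8 mouse and KOStra8 mouse 2 lay among them. The log2 fold change was 0.093 (95% interval -0.23 to 0.41, edgeR adjusted p = 0.837), from between 222 and 310 counts per library. Its level is uncertain in that 510 of its exonic bases (12.5%) are shared with *Exosc9* on the other strand, which was at 24.5 CPM in HETStra8 and 25.7 CPM in KOStra8.

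*Ccnb1* (ENSMUSG00000041431, chr13:100778650-100786570) encodes cyclin B1, the partner of CDK1 at entry into division. The gene stood at 73.04, 84.5 and 67.5 CPM in the HETStra8 mice 1, 2 and 3 and at 64.8, 69.7 and 73.6 CPM in the KOStra8 mice 1, 2 and 3. KOStra8 mouse 1 was the lowest of the 6 and HETStra8 mouse 2 the highest, with overlap between the groups. The log2 fold change was -0.11 (95% interval -0.32 to 0.091, edgeR adjusted p = 0.662), and the GC and length correction took it to -0.19 (95% interval -0.39 to 0.005, edgeR unadjusted p = 0.0554). Of the 50-base sequences in *Ccnb1* transcripts, 18.9% also occur in the pseudogene Ccnb1-ps and 13.4% in Gm12856, which themselves held at most 12 and 10 counts in any library, beside 2017 to 2844 on *Ccnb1*.

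*Ccnb2* (ENSMUSG00000032218, chr9:70407692-70421547) encodes cyclin B2, a second partner of CDK1. It was at 128, 190.2 and 177 CPM in the HETStra8 mice 1, 2 and 3 and at 178, 127 and 187 CPM in the KOStra8 mice 1, 2 and 3. HETStra8 mouse 1 and KOStra8 mouse 2 stood low and the other 4 mice high, so that the split ran through both genotypes. The spread between mice was wide, with a biological coefficient of variation of 0.174. This was at percentile 97.5 of the 10013 genes with a mean of at least 10 CPM, which were not matched to *Ccnb2* in level. The means were 165 ± 32.7 and 164 ± 32.3 CPM (SD, n = 3), and the log2 fold change was -0.011 with a 95% interval of -0.50 to 0.48 (edgeR adjusted p = 0.989).

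*Ccne1* (ENSMUSG00000002068, chr7:38097984-38107534) encodes cyclin E1, a partner of CDK2. Levels were 4.77, 6.00 and 5.43 CPM in the HETStra8 mice 1, 2 and 3 and 4.12, 6.42 and 6.38 CPM in the KOStra8 mice 1, 2 and 3. The lowest and the highest testis were both KOStra8, with the HETStra8 mice between them. The gene had 144 to 233 counts per library, and its log2 fold change was 0.061 (95% interval -0.38 to 0.50, edgeR adjusted p = 0.93).

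*Ccne2* (ENSMUSG00000028212, chr4:11191351-11204779) encodes cyclin E2, the other E-type partner of CDK2, whose loss impairs spermatogenesis in mice. Its levels were 23.2, 24.6 and 30.1 CPM in the HETStra8 mice 1, 2 and 3 and 32.5, 34.4 and 31.7 CPM in the KOStra8 mice 1, 2 and 3. All 3 KOStra8 testes lay above all 3 HETStra8 testes, with HETStra8 mouse 3 nearest to them, and *Ccne2* was the single gene of the 10 whose groups did not overlap, where 9.33% of all genes were apart in this direction. The means were 26.0 ± 3.64 CPM in HETStra8 and 32.9 ± 1.40 CPM in KOStra8 (SD, n = 3), a fold of 1.27 and a log2 fold change of 0.34 (SE 0.112, 95% interval 0.10 to 0.58). In edgeR's test the unadjusted p was 0.00862 and the adjusted p 0.261. Without the library of HETStra8 mouse 3 the log2 fold change was 0.47 and the edgeR adjusted p 0.0149, a setting in which 4.9% of all genes passed 0.05. Over all 15 alternatives the edgeR, DESeq2 or limma-voom adjusted p ranged from that value up to 0.981, which came from the GC and length correction with the replicate number as a block.

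The transcript of *Ccne2* is poor in G and C. The GC content of its longest transcript was 36.3%, at percentile 1.04 of the genes compared, and that of the longest transcripts of the other 9 genes lay between 44.1% and 52.7%. In the transcript with the longest coding sequence, GC made up 39.8% of the 1212 coding bases and 29.6% of the 1580 bases of the 3' untranslated region, where *Ccne1* had 48.9% of 1224 and 51.5% of 534. Across 21457 genes the log2 fold change ran against GC content with a Spearman correlation of -0.46, which is a description of these 6 libraries, in which all genes share the same depth and preparation. After the correction for GC content and length, *Ccne2* stood at 28.9, 28.2 and 29.1 CPM in the HETStra8 mice 1, 2 and 3 and at 29.3, 31.5 and 27.1 CPM in the KOStra8 mice 1, 2 and 3. The corrected groups overlapped, the log2 fold change fell to 0.027 (95% interval -0.17 to 0.22) and the edgeR unadjusted p was 0.766. As the GC trend goes with genotype, a technical difference and one of genotype cannot be told apart by this correction. None of the 10 genes had an unadjusted p below 0.05 after the correction, against 7.57% of all genes (4.13% higher and 3.44% lower in KOStra8), and none an adjusted p below 0.01, against 0.0186%.

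**Figure D4:**
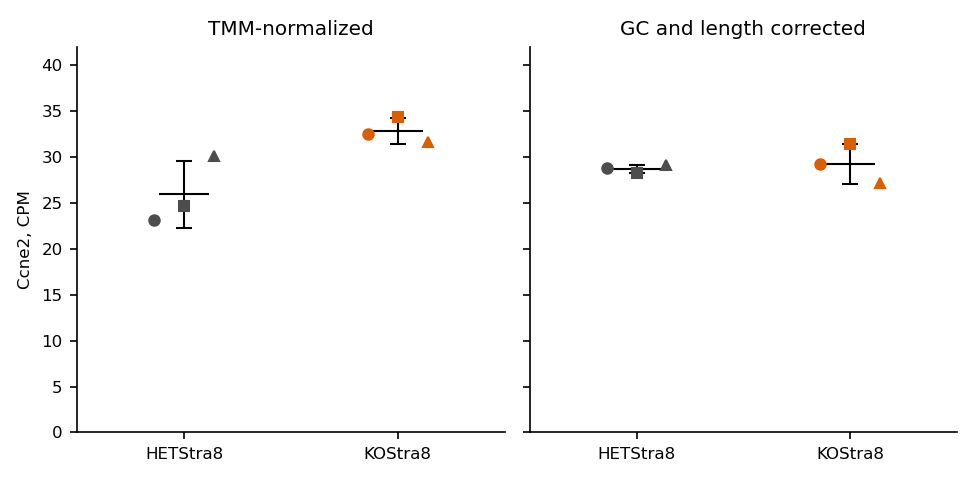
CPM of Ccne2 in each testis before (left) and after (right) correction of each library for GC content and transcript length, with mean and SD per genotype (n = 3) on a common axis from 0. The KOStra8 testes lie above the HETStra8 testes on the left and among them on the right, where the means are 28.7 and 29.3 CPM.

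The summed level of 9 leptotene and zygotene spermatocyte markers was 439, 502.5 and 670 CPM in the HETStra8 mice 1, 2 and 3 and 722, 734 and 740.0 CPM in the KOStra8 mice 1, 2 and 3, with HETStra8 mouse 3 again nearest to the KOStra8 mice. Of these 9 markers 7 had a log2 fold change above 0, beside 48.5% of all genes. At an edgeR unadjusted p below 0.05 1 of them, *Rad51ap2*, was higher in KOStra8, against 7.13% of all genes. None had an adjusted p below 0.01, against 0.0186% of all genes, and none was at 0 in any group. The log2 fold changes were uneven. They were 0.97 for *Sycp1*, 0.55 for *Rad51ap2*, 0.49 for *Sycp3*, 0.44 for *Hormad1* and 0.15 for *Spo11*. The other markers had 0.046 (*Meiob*), 0.034 (*Dmc1*), -0.039 (*Tex101*) and -0.15 (*Prdm9*). *Sycp1* alone was at 70.9 to 186 CPM in HETStra8 and 228 to 261 CPM in KOStra8. The median of the 9 was 0.15, and 0.11 after the GC and length correction. None of them then had an edgeR unadjusted p below 0.05, against 7.57% of all genes. The 12 Sertoli cell markers summed to 1361 to 1576 CPM in HETStra8 and 1137 to 1282 CPM in KOStra8, and the 8 Leydig cell markers to 553 to 835 and 464 to 599 CPM. The part of cell composition in the *Ccne2* values was not tested. *Ccne2* also shares 609 exonic bases (17.4%) with *Ints8* on the other strand, which was at 23.3 ± 3.18 CPM in HETStra8 and 25.9 ± 1.42 CPM in KOStra8 (SD, n = 3).

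*Cdk1* (ENSMUSG00000019942, chr10:69335146-69352938) encodes the kinase of the M phase. It stood at 34.5, 30.5 and 26.2 CPM in the HETStra8 mice 1, 2 and 3 and at 27.0, 30.05 and 32.2 CPM in the KOStra8 mice 1, 2 and 3. Both ends of the range were HETStra8 mice, and the log2 fold change was -0.031 (95% interval -0.28 to 0.22, edgeR adjusted p = 0.937).

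*Cdk2* (ENSMUSG00000025358, chr10:128697939-128705031) encodes the kinase that spermatocytes need at their telomeres for pairing and recombination. Its levels were 80.0, 66.5 and 71.8 CPM in the HETStra8 mice 1, 2 and 3 and 74.5, 72.2 and 66.2 CPM in the KOStra8 mice 1, 2 and 3. HETStra8 mouse 1 was the highest and KOStra8 mouse 3 the lowest, with overlap, and the log2 fold change was -0.037 (95% interval -0.23 to 0.16, edgeR adjusted p = 0.901).

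*Cks2* (ENSMUSG00000062248, chr13:51645232-51650660) encodes a small subunit of the cyclin-dependent kinase complexes, without which germ cells arrest at the first meiotic metaphase. Levels were 47.4, 43.1 and 48.8 CPM in the HETStra8 mice 1, 2 and 3 and 50.02, 50.6 and 46.0 CPM in the KOStra8 mice 1, 2 and 3. It varied least of the 10 genes, with the highest testis at 1.17 times the lowest. The log2 fold change was 0.074 (95% interval -0.12 to 0.27, edgeR adjusted p = 0.776) and -0.0024 after the GC and length correction. Of its 50-base sequences 29.7% recur in Gm15452 and 25.2% in Gm19945, which held at most 9 and 2 counts in any library.

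*Cdc25c* (ENSMUSG00000044201, chr18:34732993-34751533) encodes a phosphatase that removes inhibitory phosphates from CDK1. It was at 19.5, 20.45 and 23.2 CPM in the HETStra8 mice 1, 2 and 3 and at 19.0, 22.6 and 23.3 CPM in the KOStra8 mice 1, 2 and 3. The groups overlapped almost fully, with a log2 fold change of 0.039 (95% interval -0.21 to 0.29, edgeR adjusted p = 0.921). It shares 623 exonic bases (12.7%) with Gm3550 on the other strand, which held at most 1 count in any library. Over the 10 genes the widest 95% intervals without the correction were those of *Ccnb2* and *Ccne1*, whose upper bounds were folds of 1.40 and 1.42.

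**Figure D5:**
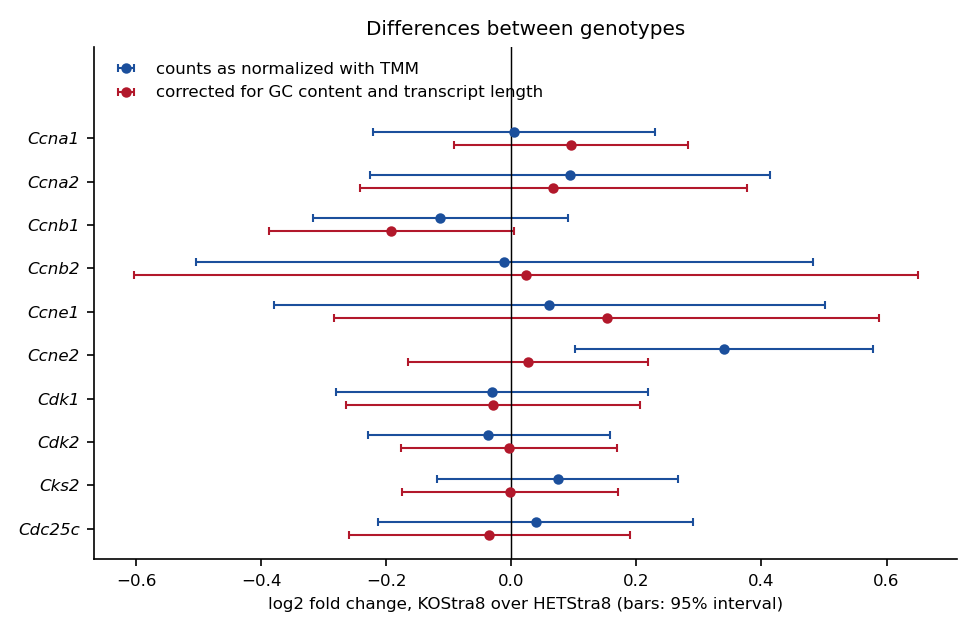
Log2 fold change of KOStra8 over HETStra8 (horizontal axis) for the 10 genes with 95% intervals from edgeR, from TMM-normalized counts (blue) and after correction for GC content and transcript length (red). The blue interval of Ccne2, 0.10 to 0.58, is the only one of the 20 that does not hold 0.

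The genes that surround the cyclins in their pathway were examined as 6 lists, in all 116 genes, of which 115 were compared. At an adjusted p of 0.01 or 0.05 edgeR called none of them, while at an unadjusted p below 0.05 KOStra8 was higher for 14 and lower for 4, against 7.13% and 5.12% of all genes. After the GC and length correction these counts were 4 and 6, against 4.13% and 3.44%. The median log2 fold change of the 115 was -0.0074, beside -0.0094 over all genes. *Mybl1* was the single list gene past an adjusted p of 0.01 with DESeq2 and without a filter on low counts, and *Mybl1* and *Cdkl2* were the ones past it without HETStra8 mouse 3, where 2.01% of all genes passed.

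Among the 19 other cyclins an unadjusted p below 0.05 was met by 2 with higher and 1 with lower levels, against 7.13% and 5.12% of all genes. After the correction the counts were 0 and 0, against 4.13% and 3.44% of all genes. The lower one before the correction was *Ccnd3*, cyclin D3 of the G1 phase. *Ccnd3* stood at 125, 125 and 122 CPM in the HETStra8 mice 1, 2 and 3 and at 108, 116 and 101 CPM in the KOStra8 mice 1, 2 and 3, without overlap, as 8.43% of all genes were in this direction. Its log2 fold change was -0.19 (edgeR adjusted p = 0.35) and -0.054 after the correction. *Ccnb3*, a B-type cyclin of early meiotic prophase, had means of 4.30 and 5.00 CPM, *Ccnd1* 7.70 and 7.42 CPM, and *Ccnd2* 7.64 and 8.11 CPM in HETStra8 and KOStra8, all with edgeR adjusted p values of 0.687 or more. *Ccny* and *Cdk16*, a cyclin and its kinase, were at 76.5 and 173 CPM in HETStra8 and at 82.5 and 157 CPM in KOStra8.

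Among the 21 other kinases 2 had an unadjusted p below 0.05, both with higher levels, against 7.13% of all genes in this direction. After the correction the counts were 1 higher and 0 lower, against 4.13% and 3.44% of all genes. *Cdk4*, the partner of D-type cyclins, had means of 25.7 and 22.8 CPM in HETStra8 and KOStra8, and *Cdk7*, the kinase that activates the others, 18.4 and 20.5 CPM. Neither passed the test, with edgeR adjusted p values of 0.56 and 0.612. *Cdkl2*, a CDC2-related kinase named here after its values were seen, had means of 175 and 212 CPM, a log2 fold change of 0.28 (edgeR adjusted p = 0.227, and from 0.00589 to 0.725 over 15 alternatives) and 0.13 after the correction. The low end came from leaving out HETStra8 mouse 3, where 2.01% of all genes passed an adjusted p of 0.01.

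The 16 activators of these kinases held 2 genes higher at an unadjusted p below 0.05, *Spdya* and *Mastl*, against 7.13% of all genes. After the correction the counts were 1 higher and 2 lower, against 4.13% and 3.44% of all genes. *Spdya* encodes Speedy A, which activates CDK2 at telomeres, and stood at 59.4, 64.1 and 72.2 CPM in the HETStra8 mice 1, 2 and 3 and at 77.2, 80.2 and 84.8 CPM in the KOStra8 mice 1, 2 and 3. *Mastl* encodes the Greatwall kinase, which restrains a phosphatase that opposes CDK1, and stood at 10.6, 10.5 and 11.9 CPM in the HETStra8 mice 1, 2 and 3 and at 14.7, 14.7 and 17.0 CPM in the KOStra8 mice 1, 2 and 3. In both genes every KOStra8 testis lay above every HETStra8 testis, as in 9.33% of all genes. Their log2 fold changes were 0.31 and 0.49 (edgeR adjusted p = 0.22 and 0.181, with ranges of 0.012 to 0.833 and 0.0327 to 0.695 over 15 alternatives), and 0.11 and 0.27 after the correction, where the edgeR unadjusted p was 0.12 and 0.0365. The low ends of both ranges came from leaving out HETStra8 mouse 3, a setting in which 4.9% of all genes passed an adjusted p of 0.05. *Hspa2*, a chaperone needed to assemble CDK1 with cyclin B1 in spermatocytes, was at 1421 and 1342 CPM in HETStra8 and KOStra8, *Plk1* at 113 and 97.8 CPM, *Cdc25b* at 2.73 and 2.25 CPM and *Cks1b* at 4.46 and 4.67 CPM, none past the test. *Cdc25a* was at 116 and 107 CPM, with a log2 fold change of -0.12 and, after the correction, -0.16 (edgeR unadjusted p = 0.034). *Mnat1*, which encodes a subunit of the CDK7 kinase complex and is named after its values were seen, was at 17.2 and 14.7 CPM, with a log2 fold change of -0.23 (edgeR adjusted p = 0.435) and -0.50 after the correction (edgeR unadjusted p = 0.000807).

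Of 12 inhibitors compared none had an unadjusted p below 0.05, against 12.3% of all genes. After the correction 1 of them, *Cdkn1b*, the inhibitor p27, was lower at that level, against 3.44% of all genes. *Cdkn1b* was at 12.2, 12.4 and 12.2 CPM in the HETStra8 mice 1, 2 and 3 and at 10.8, 10.5 and 10.6 CPM in the KOStra8 mice 1, 2 and 3. All KOStra8 testes lay below all HETStra8 testes, as in 8.43% of all genes. The log2 fold change was -0.20 (edgeR adjusted p = 0.531), and the correction took it to -0.33 (edgeR unadjusted p = 0.0159). *Wee1* and *Pkmyt1*, kinases that place the inhibitory phosphates on CDK1, had means of 51.7 and 55.5 CPM in HETStra8 and 53.6 and 51.0 CPM in KOStra8, and the inhibitors *Cdkn2c* and *Cdkn2d* had 124 and 43.4 CPM in HETStra8 and 119 and 40.0 CPM in KOStra8. *Wee2*, the oocyte relative of *Wee1*, was below the filter, at 0.114 and 0.0477 CPM.

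Among 25 genes for the destruction of cyclins an unadjusted p below 0.05 was met by 4 with higher and 2 with lower levels. Over all genes the shares were 7.13% and 5.12%. After the correction the counts were 2 and 3, against 4.13% and 3.44% of all genes. *Fbxo5*, whose product EMI1 inhibits the anaphase-promoting complex, had the widest difference of all 115 genes. It was at 1.24, 1.31 and 2.01 CPM in the HETStra8 mice 1, 2 and 3 and at 2.32, 2.94 and 2.82 CPM in the KOStra8 mice 1, 2 and 3. The groups did not overlap, as in 9.33% of all genes in this direction. The log2 fold change was 0.82 (SE 0.283, edgeR adjusted p = 0.285, from 0.0563, without HETStra8 mouse 3, to 0.729 over 15 alternatives) and 0.77 after the correction, with an edgeR unadjusted p of 0.0115 and 0.0138. *Fbxo43*, which encodes the related inhibitor EMI2, was at 34.0 and 38.0 CPM, and the activators of the complex *Cdc20* and *Fzr1* were at 136 and 156 CPM in HETStra8 and at 120 and 137 CPM in KOStra8. *Fzr1* had an edgeR unadjusted p of 0.0418 and an adjusted p of 0.388, with a log2 fold change of -0.19, and of -0.032 after the correction. The smallest corrected edgeR unadjusted p of the 115 genes, 0.000608, was that of *Btrc*, a substrate receptor of the SCF ubiquitin ligase that is named after its values were seen. It was at 131 and 120 CPM in HETStra8 and KOStra8, with a log2 fold change of -0.12 (edgeR adjusted p = 0.525) and of -0.34 after the correction, and no list gene had a corrected adjusted p below 0.01.

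Of 24 transcription regulators of cell cycle genes an unadjusted p below 0.05 was met by 4 with higher and 1 with lower levels. Over all genes the shares were 7.13% and 5.12%. After the correction the counts were 0 and 0, against 4.13% and 3.44% of all genes. *Mybl1*, the MYB factor that drives the pachytene programme, was at 65.2, 63.1 and 79.4 CPM in the HETStra8 mice 1, 2 and 3 and at 90.0, 92.1 and 101.5 CPM in the KOStra8 mice 1, 2 and 3. HETStra8 mouse 3 was again nearest to the KOStra8 mice, and the groups did not overlap, where 9.33% of all genes were apart in this direction. The log2 fold change was 0.45 (SE 0.0972, edgeR unadjusted p = 0.00038, adjusted p = 0.112, from 0.000151 to 0.816 over 15 alternatives) and 0.12 after the correction, with an edgeR unadjusted p of 0.107. Its relative *Mybl2*, of mitotic cells, was at 20.9 and 20.2 CPM, and *Foxm1*, which drives B-type cyclin genes in dividing cells, at 217 and 201 CPM in HETStra8 and KOStra8.

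The genes whose log2 CPM followed those of the 3 highest genes most closely over the 6 libraries, among 17592 genes with a mean of at least 1 CPM, were *Plekhh2* (Pearson r = 0.994) and *Pdzrn3* (r = 0.990) for *Ccnb2*, *Ndufa3* (r = 0.990) and *U2af1* (r = 0.989) for *Ccna1*, and *Rab11a* (r = 0.997) and *Ggh* (r = 0.993) for *Cks2*. *Plekhh2* was at 138, 168 and 158 CPM in the HETStra8 mice 1, 2 and 3 and at 160.3, 136 and 162 CPM in the KOStra8 mice 1, 2 and 3. It was thus low in HETStra8 mouse 1 and KOStra8 mouse 2, as *Ccnb2* was. These correlations rest on 6 points that share their libraries and were picked as the highest of many.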

How the data were processed

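The authors deposited 1 table of raw read counts per mouse, not normalized, over 55536 Ensembl genes. The submitters' processing notes name, with no order or role, FastQC, Trimmomatic, STAR 2.7.1a, Picard 2.20.4, StringTie 2.0.4, featureCounts 1.6.0 and HTSeq, with mm10 and GRCm38; which tool counted, and whether by strand, was not given in the sources used here. Libraries were directional. Symbols and positions are from GENCODE M21.

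Counts were compared in R 4.3.3 with edgeR 4.0.16 (filterByExpr, TMM, robust quasi-likelihood fit on genotype, two-sided F test, Benjamini-Hochberg over 21465 genes, cutoff 0.01). Total counts were 28875108 to 36526695 per library and set the counting error, while intervals and tests also hold the spread between mice. Log2 CPM used a prior count of 2. GC and length offsets came from loess curves per library (span 0.3). Alternatives were DESeq2's size factors, library totals, no filter, at least 10 counts in every library, DESeq2 1.42.0, limma-voom (limma 3.58.1), a replicate block, the offsets, and leaving out each mouse. Steps were tested on simulated data.

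The genes, lists and alternatives were chosen with earlier results of these data known. Named are the 10 genes, *Sel1l*, 28 pathway genes picked by function, and the 2 genes most correlated with each of the 3 highest genes, and, chosen after their values were seen, *Cdkl2*, *Mnat1*, *Btrc*, early spermatocyte markers and genes sharing sequence. Nothing in the labels says more of each mouse than its group and number. The edgeR p-values set the difference between groups against counting error and the spread between these mice.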

Additional observations from a re-analysis of the deposited data

How the results depend on the processing

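None of the 10 genes passed an adjusted p of 0.01 under any of the 15 alternatives, and *Ccna2*, *Ccnb1* and *Ccne2* kept their direction in all of them. Deviations of same-numbered mice correlated at -0.0601, -0.0525 and 0.108, and those of different-numbered mice at -0.116 to 0.155. With 3 mice per group these values cannot decide whether the mouse numbers pair the samples. With the replicate block 0 of the 10 genes passed 0.01 and 1 had an unadjusted p below 0.05, while over all genes 31 instead of 3 were called higher, and 5 with the block and the GC and length correction together. Under the correction, alone or with the block, 0 of the 10 had an unadjusted p below 0.05, the list genes higher at that level went from 14 to 4 and 2, and the log2 fold changes turned to 0.023 and 0.022 for *Ccnb2*, -0.0024 and -0.0025 for *Cks2* and -0.036 and -0.038 for *Cdc25c*. The correction, added for the ratios after seeing the data, turned the differences of *Ccna1* over *Ccna2*, *Ccne1* over *Ccne2* and *Cdk1* over *Cdk2* to 0.033, 0.111 and -0.023. With library totals *Ccnb2* was at 0.00031, and the list genes lower at an unadjusted p below 0.05 fell from 4 to 2, as with limma-voom. Calls over all genes, 3 higher and 1 lower, became 337 and 48 without a filter and 121 and 11 with DESeq2, and 1 list gene then passed 0.01 in each. Leaving out 1 mouse at a time gave 1 to 421 genes higher and 0 to 22 lower, with 421 and 22 without HETStra8 mouse 3. The list genes past 0.01 then ranged from 0 to 2, those higher at an unadjusted p below 0.05 from 7 to 23 and those lower from 0 to 14, each highest without HETStra8 mouse 3. The log2 fold changes ranged from -0.092 to 0.085 for *Ccna1*, 0.062 to 0.149 for *Ccna2*, -0.174 to -0.019 for *Ccnb1* (-0.019 without HETStra8 mouse 2), 0.264 to 0.469 for *Ccne2*, 0.023 to 0.121 for *Cks2*, -0.164 to 0.149 for *Ccnb2*, -0.039 to 0.252 for *Ccne1*, -0.118 to 0.069 for *Cdk1*, -0.098 to 0.036 for *Cdk2* and -0.019 to 0.130 for *Cdc25c*, and the ratio differences from -0.210 to 0.024, -0.277 to 0.059, -0.438 to -0.105 and -0.101 to 0.113 in the order given in the report. The causes were not tested. Counting error weighs most on *Ccne1* and *Ccna2*, with the fewest counts.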
